A study of Rattus norvegicus with 6 samples.

Results

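Voltage-gated calcium channels open when the beta cell depolarizes, and the calcium that enters triggers insulin release. The pore is formed by an α1 subunit, while auxiliary subunits set how many channels reach the membrane and how they gate. The cytoplasmic β subunits bind the loop between the first repeats of high-voltage-activated pores, and the α2δ subunits are largely extracellular, anchored to the membrane, and bind gabapentin in the case of α2δ-1 and α2δ-2. Transcripts of both families are known to be alternatively spliced.

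The genes described here are the 4 β subunit genes Cacnb1, Cacnb2, Cacnb3 and Cacnb4 and the 3 α2δ subunit genes Cacna2d1, Cacna2d2 and Cacna2d3. They were taken by gene name from the deposited transcript assembly, and 7 of 24579 gene models carried one of these names, with 40 assembled transcripts among them. The study used primary beta cells of the rat, sorted by flow cytometry from pancreas and cultured. In the knockdown group they received 30 nM siRNA against Nova1, a neuronal RNA-binding protein that regulates alternative splicing. In the control group they received 30 nM of a commercial non-targeting siRNA. In both groups transfection lasted 16 h and recovery 48 h, and both shared the same lipid reagent. There was 1 library of each group in each of 3 batches, and the strain, sex and age of the animals and whether the batches came from separate animals are not given in the labels. The p-values therefore speak for no more than these 3 batches. In limma, each variance was also drawn toward that of the other genes, transcripts or exons tested.

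Assigned reads numbered 130251486, 95394043 and 146453308 in knockdown libraries 1, 2 and 3, against 292432076, 122637234 and 199930608 in control libraries 1, 2 and 3, and in each batch more reads came from the control. Beta cell markers such as Ins1 and Slc2a2 were abundant in all 6 libraries, while G6pc2 was at or near 0. Markers of other cell types were also detected. Gcg, the glucagon gene of alpha cells, had 6466, 14249 and 9214 RPKM in knockdown libraries 1, 2 and 3, against 4728, 12641 and 7084 RPKM in control libraries 1, 2 and 3, so it was higher with knockdown in each batch and highest in batch 2. Ins1 was lowest in batch 2, at 139929 RPKM in knockdown and 190653 RPKM in control. The 6 markers of other islet endocrine cells, with Ghrl at 0, summed to 7384 to 15772 RPKM in knockdown libraries and 5528 to 14474 RPKM in control libraries. The 7 immune markers, none at 0 in all libraries, summed to 15.9, 21.9 and 10.8 RPKM in knockdown libraries and 14.1, 13.6 and 11.4 RPKM in control libraries. Of the 7, 5 had an unadjusted p below 0.05 by limma, against 23.9% of all genes tested. Their median log2 fold change was 1.06, with 1 called higher and 1 lower, where 1.71% of all genes tested were called. The 8 stellate and fibroblast markers, none at 0 in all libraries, summed to 23.6, 29.3 and 31.1 RPKM (reads per kilobase of transcript, scaled to depth) in knockdown libraries and to 9.36, 12.6 and 21.4 RPKM in control libraries. The 8 acinar markers summed to 298, 233 and 102 RPKM in knockdown libraries and to 396, 279 and 139 RPKM in control libraries. Unadjusted p by limma was below 0.05 for 5 of 8 stellate and fibroblast markers (median log2 fold change 0.70, 1 called higher). The same held for 4 of 8 acinar markers (median -0.42, 1 called lower). Among markers tested it held for 2 of 5 other islet endocrine and 0 of 9 beta cell markers. The part of any of these cell types in the values below was not tested. Nova1 averaged 9.13 ± 1.24 CPM (reads scaled to library size) in knockdown libraries and 19.8 ± 2.14 CPM in control libraries (SD, n = 3 each). Its log2 fold change was -1.12 (SE 0.11, adjusted p = 0.038 by limma), and the groups did not overlap in CPM. In RPKM they overlapped, at 1.38, 2.38 and 1.81 in knockdown libraries 1, 2 and 3 and 5.06, 2.83 and 2.03 in control libraries 1, 2 and 3. Without batch 1 the adjusted p for Nova1 was 0.15, and without batch 2 it was 0.16.

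RefSeq promoter sequences show what kind of start these genes have, and 5 of the 7 genes had at least 1 entry (build GRCr8). The 250 bases before the start are given for both annotated starts of Cacnb2, whose start use is described below, and for Cacnb3 and Cacna2d1, the most abundant member of each family. Capitals mark the GC box, searched as GGGCGG and its reverse complement CCGCCC. Searches for the TATA box as TATAAA or TTTATA and the CCAAT box as CCAAT or ATTGG found no match in these windows. Hits of either strand and overlapping hits were counted.
Cacnb2, upstream start, chr17:82472965-82473214, plus strand: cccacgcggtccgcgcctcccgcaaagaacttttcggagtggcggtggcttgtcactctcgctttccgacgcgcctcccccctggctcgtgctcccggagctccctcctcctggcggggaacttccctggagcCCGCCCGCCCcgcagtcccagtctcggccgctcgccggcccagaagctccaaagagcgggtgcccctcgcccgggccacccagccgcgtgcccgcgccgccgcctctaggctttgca
Cacnb2, downstream start, chr17:82596542-82596791, plus strand: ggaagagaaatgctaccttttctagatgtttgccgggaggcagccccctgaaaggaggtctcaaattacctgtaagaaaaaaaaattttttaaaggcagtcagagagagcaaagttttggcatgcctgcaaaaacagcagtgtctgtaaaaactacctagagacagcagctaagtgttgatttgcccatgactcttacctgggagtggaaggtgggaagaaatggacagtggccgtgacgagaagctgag
Cacnb3, chr7:131666301-131666550, plus strand: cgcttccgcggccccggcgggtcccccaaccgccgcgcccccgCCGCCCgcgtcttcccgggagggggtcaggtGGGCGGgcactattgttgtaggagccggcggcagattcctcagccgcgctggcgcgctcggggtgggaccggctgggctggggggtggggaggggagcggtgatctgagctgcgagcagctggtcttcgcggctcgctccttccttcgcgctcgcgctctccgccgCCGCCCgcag
Cacna2d1, chr4:20329863-20330112, minus strand: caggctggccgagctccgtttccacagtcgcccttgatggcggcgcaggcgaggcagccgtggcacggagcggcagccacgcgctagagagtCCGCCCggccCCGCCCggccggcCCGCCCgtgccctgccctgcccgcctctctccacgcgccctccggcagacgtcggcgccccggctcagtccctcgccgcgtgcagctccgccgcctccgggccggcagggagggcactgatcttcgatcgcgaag

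The upstream Cacnb2 window held 73.2% G and C, 30 CpG dinucleotides and 2 GC boxes, while the downstream one held 45.6% G and C, 3 CpG dinucleotides and 0 GC boxes. Cacnb3 held 76.4% G and C with 35 CpG dinucleotides and 3 GC boxes, and the printed Cacna2d1 window 76.8% with 36 CpG dinucleotides and 3 GC boxes. Cacna2d1 has 3 RefSeq entries, of which the most upstream (chr4:20330148-20330397) held 77.2% G and C, 32 CpG dinucleotides and 7 GC boxes. Over all 33469 RefSeq promoter windows of this length the median was 51.2% G and C with 5 CpG dinucleotides. A GC box stood in 30.5% of them, a TATA box in 12.9% and a CCAAT box in 34.0%. Of the 4 windows printed, only the downstream Cacnb2 start lay below that median. These windows were not matched to starts of the assembly, which is on Rnor_5.0. Which of the Cacnb2 starts described below the downstream window belongs to was not tested.

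In summed RPKM, 1 gene supplied most of each family. Among β subunits, Cacnb3, the isoform abundant in brain and endocrine cells, supplied 74.2 ± 8.50% of the family's RPKM in knockdown libraries and 76.5 ± 7.86% in control libraries (SD, n = 3 each). Cacnb2, known for its role in the heart, supplied 22.7 ± 7.0% and 20.4 ± 6.23% in knockdown and control libraries, and Cacnb1, the skeletal muscle subunit, 3.03 ± 1.45% and 3.00 ± 1.66%. Among α2δ subunits, Cacna2d1 supplied 98.1 ± 0.917% in knockdown libraries and 98.1 ± 1.09% in control libraries. Counting only transcripts that match a reference, Cacnb3 averaged 9.80 RPKM in knockdown and 10.1 RPKM in control libraries, and Cacnb2 7.43 and 6.67 RPKM. In batch 2 this order was reversed. The matching Cacnb3 transcript, of 2525 nt, had 0 RPKM in knockdown and 6.17 RPKM in control. A matching Cacnb2 transcript, of 3571 nt, alone had 10.2 and 7.62 RPKM. These values also depend on how reads were split among transcripts, and what narrowed the lead was not tested. With summed reads per kilobase of the longest transcript, Cacnb3 averaged 38.7 in knockdown and 38.3 in control libraries, and Cacnb2 9.14 and 7.74. The summed β RPKM over all transcripts was 56.0 ± 2.44 in knockdown libraries and 54.2 ± 3.74 in control libraries.

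Cacna2d1 (Rnor_5.0, chr4:15680026-16107383, minus strand) encodes α2δ-1. Its level was 57.3, 61.6 and 78.5 RPKM in knockdown libraries 1, 2 and 3, against 59.8, 51.9 and 73.0 RPKM in control libraries 1, 2 and 3. Batch 3 was highest in both groups, and the groups overlapped. The log2 fold change was -0.01 (SE 0.07, adjusted p = 0.95). It was -0.17, 0.13 and 0.02 in batches 1, 2 and 3, so the sign differed between batches.

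Cacnb3 (Rnor_5.0, chrX:114815945-114828180, plus strand, in the coordinates of the files) had 42.1, 35.5 and 47.2 RPKM in knockdown libraries 1, 2 and 3. In control libraries 1, 2 and 3 it had 44.1, 33.9 and 46.8 RPKM. The files place this gene on X, whereas the RefSeq table on GRCr8 has it on chromosome 7. Its log2 fold change was -0.04 (SE 0.05, adjusted p = 0.65). The ranges over all 6 libraries were 33.9 to 47.2 RPKM for Cacnb3 and 51.9 to 78.5 RPKM for Cacna2d1, which do not overlap. Their order depends on the length used. With summed reads per kilobase of the longest transcript, Cacna2d1 averaged 33.9 in knockdown and 32.8 in control libraries, below Cacnb3 at 38.7 and 38.3.

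Cacnb2 (chr17:83418078-83764461, plus strand) was next in order of level. It had 10.7, 16.9 and 10.3 RPKM in knockdown libraries 1, 2 and 3, against 11.2, 13.4 and 8.08 RPKM in control libraries 1, 2 and 3. Batch 2 was highest in both groups. By scaled reads the knockdown was higher in all 3 batches, by 0.12, 0.20 and 0.20 on the log2 scale, and the log2 fold change was 0.17 (SE 0.05, unadjusted p = 0.014, adjusted p = 0.12). It did not pass the test.

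Cacnb1 (chr10:85742567-85763729, minus strand) had 1.32, 2.57 and 1.15 RPKM in knockdown libraries 1, 2 and 3, against 1.28, 2.44 and 1.03 RPKM in control libraries 1, 2 and 3. Cacna2d2 (chr8:115510911-115642357, plus strand), which encodes α2δ-2 and is known from cerebellum, had 0.908, 1.85 and 0.946 RPKM in knockdown libraries 1, 2 and 3. In control libraries 1, 2 and 3 it had 0.958, 1.54 and 0.660 RPKM. Their ranges overlapped, but Cacnb1 was the higher of the pair in each of the 6 libraries. In both genes, as in Cacnb2, batch 2 was the highest in each group, the batch in which Gcg was highest and Ins1 lowest. The log2 fold change was 0.03 for Cacnb1 (SE 0.08, adjusted p = 0.81). The log2 fold change of Cacna2d2 was 0.25 (SE 0.08, unadjusted p = 0.025, adjusted p = 0.16), and by scaled reads its knockdown library was higher in each batch, by 0.30, 0.13 and 0.35 on the log2 scale. In RPKM, which also depends on the transcripts that reads were assigned to, the knockdown library of batch 1 was the lower one for both Cacnb2 and Cacna2d2.

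Cacnb4 (chr3:43054404-43191213, minus strand), a β subunit of the brain, and Cacna2d3 (chr16:4812761-5730476, minus strand) were near the bottom of detection. Cacnb4 ranged over 0.047 to 0.090 RPKM in knockdown libraries and 0.065 to 0.103 RPKM in control libraries, on 24 to 76 reads a library. Nearly all whole read sums in the files are even, so reads may have been counted as pairs, and the number of fragments may be lower. Its log2 fold change was -0.38 (SE 0.25, adjusted p = 0.41). Cacna2d3 ranged over 0.008 to 0.024 RPKM in knockdown libraries and 0.015 to 0.086 RPKM in control libraries, on 4 to 36 reads. Its log2 fold change was -0.93 (SE 0.52, adjusted p = 0.32), and the batch values ran between 0.05 and -1.84.

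**Figure D1:**
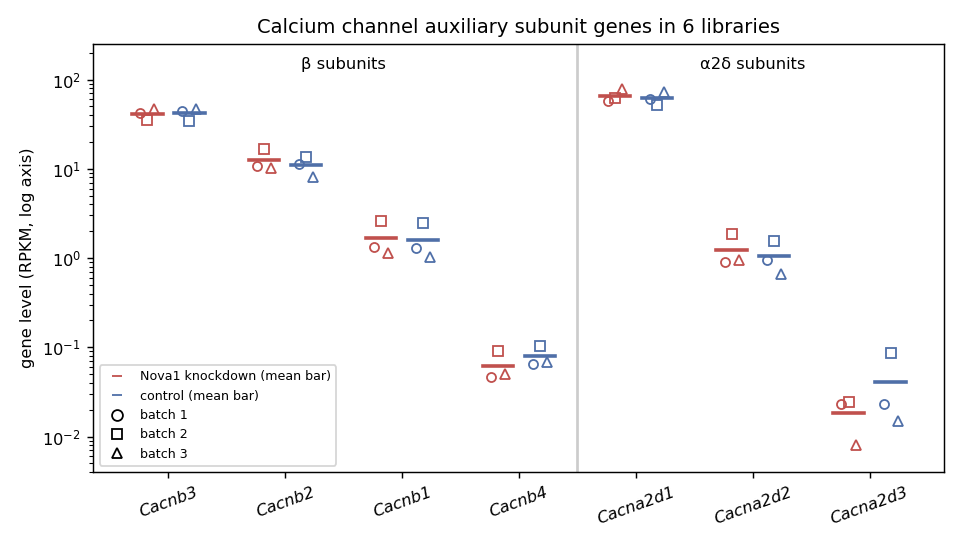
Gene level in RPKM on a log axis for the 7 genes, with 3 Nova1 knockdown libraries left of 3 control libraries, marker shape giving the batch and a bar the mean. Cacna2d1 and Cacnb3 lie at 33.9 RPKM or above in every library, and Cacnb4 and Cacna2d3 lie near or below 0.1 RPKM.

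Of the 7 genes, 0 passed the test at gene level, against 1.71% of the 15983 genes tested (0.513% higher and 1.2% lower in knockdown). Unadjusted p was below 0.05 for Cacnb2 and Cacna2d2, 2 of 7, where 23.9% of all genes tested reached that level. With the transcript length trend removed, the log2 fold change was 0.09 for Cacnb2 (unadjusted p = 0.071, adjusted p = 0.24 by limma) and 0.17 for Cacna2d2 (unadjusted p = 0.074, adjusted p = 0.25 by limma). The same direction in all 3 batches was seen for 3 of 7 (Cacnb2, Cacna2d2 and Cacnb4), against 50.1% of all genes tested. Groups that did not overlap were seen for 0 of 7, against 8.06%. The median log2 fold change of the 7 was -0.01, with 3 positive and 4 negative values, beside 0.004 over all genes tested. These shares lie near or below the background, and in bulk RNA fewer cells of a type and less RNA per cell cannot be told apart.

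**Figure D2:**
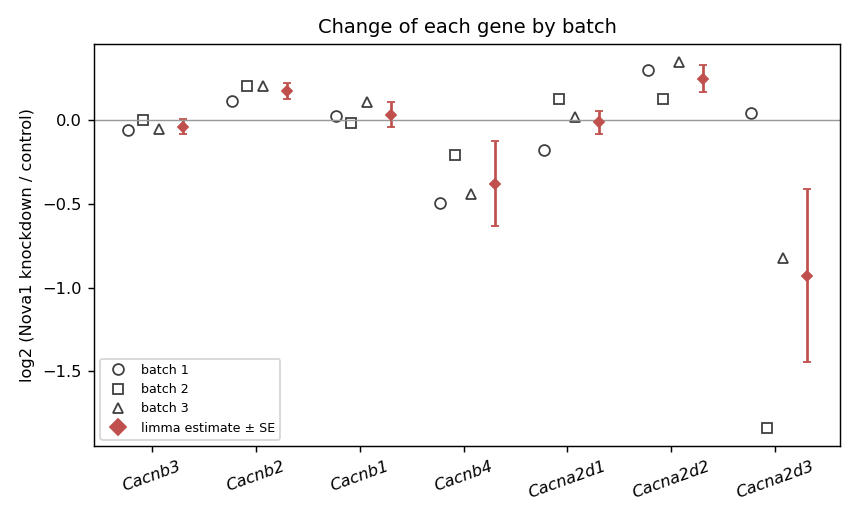
Log2 difference of Nova1 knockdown against control for each gene, in each of the 3 batches (grey symbols), with the limma estimate and its SE in red. The estimates of the 5 genes with at least 1 RPKM in both group means lie between -0.04 and 0.25, while Cacnb4 and Cacna2d3 have wide errors.

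The genes whose scaled level ran most closely with each subunit over the 6 libraries, among 10263 genes at 1 RPKM or more, were found by Pearson's r of log2 CPM, as a description only. For Cacnb3 these were Rala (0.998), St6galnac6 (0.998) and Tspan33 (0.998). For Cacna2d1 they were Ythdf3 (0.995), Vsig10 (0.991) and Cog5 (0.988). For Cacnb2 they were Ccdc120 (0.998), Fbxo10 (0.997) and Vps9d1 (0.997). For Cacnb1 they were Tinf2, Pla2g4b and Clasrp, and for Cacna2d2 Aldh1l2, Mapk8ip3 and Ap1g2. The libraries are paired by batch, and Rala had 34.9 CPM in knockdown 2 and 34.8 CPM in control 2, its lowest values of the 6. What lies behind these correlations was not tested.

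The β subunit proteins share a core in which an SH3 domain and a guanylate kinase domain are joined by a variable linker, and the middle exon of the gene is the one that differs. In the assembly an exon of 20 nt stood in this place in Cacnb1, Cacnb2, Cacnb3 and Cacnb4, immediately before the same pair of exons, of 81 nt and 59 nt. Cacnb2 carried instead a 134 nt exon (chr17:83741489-83741622) in 4 of its 5 transcripts and the 20 nt exon (chr17:83741764-83741783) in 1. Cacnb1 had a 155 nt exon (chr10:85752698-85752852) as a further form. Cacnb3 had a 14 nt version in 1 of its 5 transcripts.

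The 20 nt form of Cacnb2 came from a transcript of 7013 nt and made up 33.0%, 35.4% and 23.9% of the gene's RPKM in knockdown libraries 1, 2 and 3. In control libraries 1, 2 and 3 it made up 7.20%, 18.7% and 18.2%. Every knockdown value lay above every control value. The 7013 nt transcript also had a next-to-last exon of 186 nt. The 134 nt transcripts with any RPKM had 189 nt there, so the share cannot be assigned to the 20 nt exon alone. Shares did not overlap between groups for 3 of the 24 member transcripts tested, all of Cacnb2, against 9.37% of all transcripts tested. The means were 30.8 ± 6.05% in knockdown libraries and 14.7 ± 6.48% in control libraries (SD, n = 3 each), a difference of 16.1 percentage points that was 25.8, 16.7 and 5.76 in batches 1, 2 and 3. In a test of the 20 nt against the 134 nt exon over 258 pairs of mutually exclusive exons, added after these values were seen, the difference in log2 odds, knockdown minus control, was 1.41 (SE 0.58, unadjusted p = 0.070, adjusted p = 0.81 by limma) and did not pass. No pair of the 258 passed (0% called), and 3.88% had an unadjusted p below 0.05.

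The transcript test gave the same transcript an unadjusted p of 0.027 and an adjusted p of 0.45, so it was not called. Of the gene's 5 transcripts, 3 began at the most upstream start. Within that start the 20 nt form held 67.4%, 100% and 56.3% in knockdown libraries 1, 2 and 3, against 24.8%, 47.5% and 35.3% in control libraries 1, 2 and 3. Its partner there, a transcript of 7165 nt with the 134 nt exon, was listed at 0 in knockdown 2 and held 15.9% and 18.6% of the gene in knockdown libraries 1 and 3, against 21.8%, 20.7% and 33.3% in control libraries 1, 2 and 3. In the test of the 20 nt against the 134 nt exon over all Cacnb2 transcripts, the difference in log2 odds was 0.85 without batch 1. Without batch 3 that difference was 1.88.

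**Figure D3:**
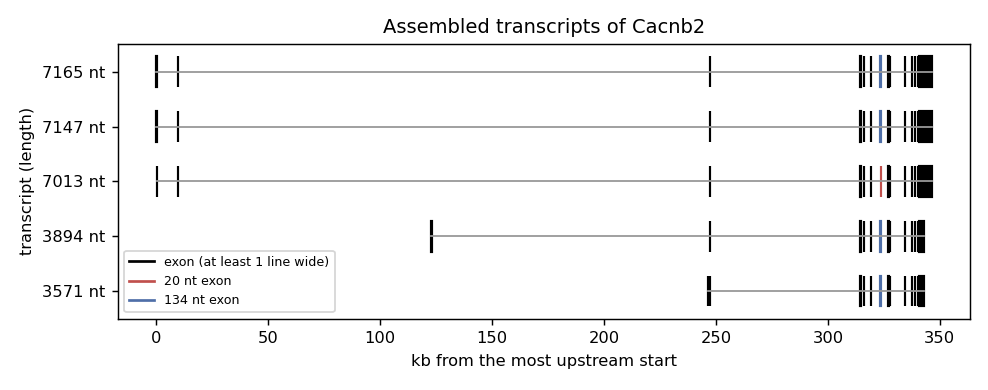
Exons (boxes) and introns (lines) of the 5 assembled Cacnb2 transcripts, in kb from the most upstream start, with the 20 nt exon red and the 134 nt exon blue. The 20 nt exon stands in the 7013 nt transcript only, one of 3 that begin at the most upstream start.

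**Figure D4:**
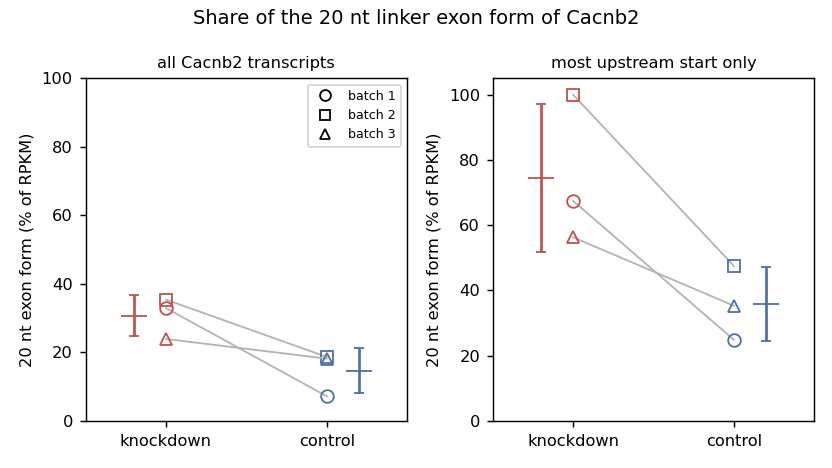
Share of the 20 nt exon form of Cacnb2 in percent of RPKM, over all transcripts (left panel) and among transcripts from the most upstream start (right panel), with knockdown left of control, lines joining a batch, and mean ± SD at the side. In both panels every knockdown value lies above every control value.

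Cacnb2 used 3 starts, at 0, 122.6 and 246.5 kb along the gene, with 42.3 ± 6.73%, 5.28 ± 1.27% and 52.5 ± 7.93% of RPKM in knockdown libraries. In control libraries they held 40.0 ± 11.3%, 3.27 ± 0.866% and 56.8 ± 12.0%. Transcripts from the first start ended in a last exon of 5479 nt and the others in one of 2224 nt. For each start the group means differed by less than the larger SD, except the rarest, at 122.6 kb.

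In Cacnb1 the 20 nt exon form held 68.5%, 48.2% and 49.8% of RPKM in knockdown libraries 1, 2 and 3. In control libraries 1, 2 and 3 it held 68.3%, 39.9% and 44.1%. A form with neither exon, whose next exon is 77 nt in place of 81 nt, held 29.8%, 45.1% and 30.8% in knockdown libraries and 22.8%, 60.1% and 53.6% in control libraries. For both forms the knockdown and control ranges overlapped. In Cacnb3 the 20 nt form held 84.8 ± 7.38% in knockdown libraries and 87.3 ± 0.727% in control libraries. In Cacnb4 all RPKM lay in forms with the 20 nt exon.

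Cacnb3 used 4 starts. Its largest share by group mean came from a transcript of 2451 nt, with 10.9%, 54.8% and 39.0% in knockdown libraries 1, 2 and 3, against 43.8%, 49.8% and 44.9% in control libraries 1, 2 and 3. A transcript of 2552 nt held 45.6%, 15.8% and 12.4% in knockdown libraries 1, 2 and 3, the largest share of knockdown 1, against 19.2%, 17.5% and 10.7% in control libraries 1, 2 and 3. A transcript of 2525 nt was listed at 0 in knockdown 2 and at 31.0% and 34.7% in the other two knockdown libraries, while the control libraries had 24.1%, 18.2% and 28.7%. These transcripts differ only in their first exon, and a value at 0 may be a failed split of shared reads.

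Cacna2d1 is known to be spliced in tissue-specific ways at its middle, and 3 of its exons could be measured as cassette exons, which a transcript either includes or skips. A 57 nt exon (chr4:15733425-15733481) was included in 23.4%, 27.4% and 11.3% of the relevant RPKM in knockdown libraries 1, 2 and 3, against 36.2%, 31.8% and 15.9% in control libraries 1, 2 and 3. A 21 nt exon (chr4:15715632-15715652) was included in 28.1%, 30.1% and 16.1% in knockdown libraries and 38.2%, 40.6% and 19.2% in control libraries. A 72 nt exon (chr4:15728201-15728272) was included in 88.0%, 89.2% and 92.9% in knockdown libraries and 72.2%, 85.2% and 90.6% in control libraries.

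In each batch, inclusion of the 57 nt and 21 nt exons was lower after knockdown and that of the 72 nt exon was higher. All 3 exons had 1 direction in 3 batches, against 24.2% of the 4346 cassette exons tested, but they share transcripts and are not independent. Log2 odds of inclusion were -0.58 for the 57 nt exon, -0.54 for the 21 nt exon and 0.80 for the 72 nt exon as knockdown minus control, with adjusted p = 0.87 for each by limma. Without batch 1 the value of the 72 nt exon was 0.47. None of these passed, nor did any of the 4346 (0% called, 4.60% with an unadjusted p below 0.05). Skipping of the 72 nt exon came from 1 transcript of 8384 nt, whose share was 7.27%, 7.49% and 4.43% in knockdown libraries 1, 2 and 3, against 20.99%, 10.8% and 5.88% in control libraries 1, 2 and 3. The transcript test gave it an unadjusted p of 0.032 and an adjusted p of 0.47 by limma, so it was not called. No other transcript began at its start, so exon skipping and start use cannot be told apart here. The 8384 nt transcript alone also carried 1 exon (chr4:15704576-15704662) of a mutually exclusive pair of 87 nt exons. For the other exon (chr4:15704136-15704222) the difference in log2 odds was 0.80 (unadjusted p = 0.16, adjusted p = 0.81 by limma). It rests on the same transcripts as the 72 nt exon and is not an independent value. Batch 3 had the lowest inclusion of the 57 nt and 21 nt exons in both groups.

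**Figure D5:**
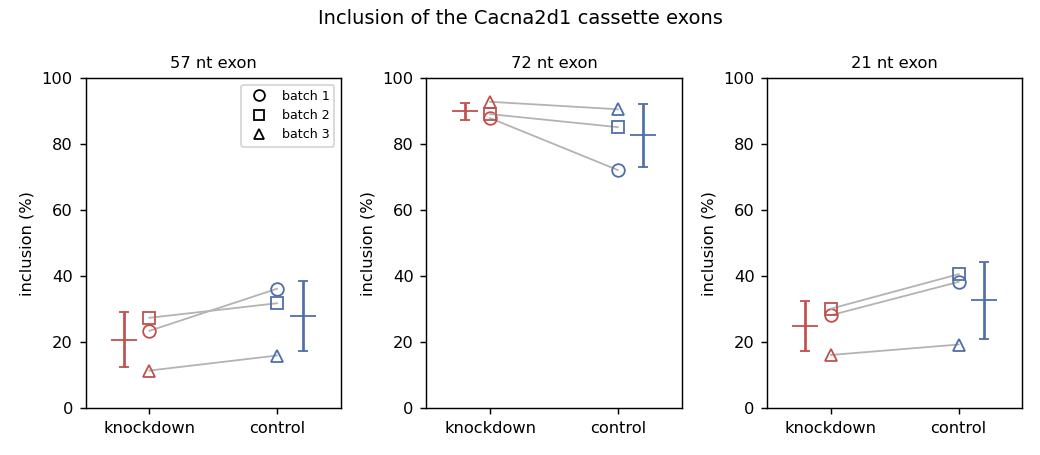
Inclusion in percent of the 57, 72 and 21 nt cassette exons of Cacna2d1, knockdown left of control, lines joining a batch and mean ± SD at the side. In each batch the knockdown value lies below the control value for the 57 and 21 nt exons and above it for the 72 nt exon, and the group ranges overlap for all 3 exons.

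The last exon of Cacna2d1 had a long form of 5316 nt and a short form of 502 nt ending inside it. The long form held 56.0 ± 5.07% of RPKM in knockdown libraries and 55.7 ± 3.63% in control libraries, and the short form 44.0 ± 5.07% and 44.3 ± 3.63%. Part of the long share was a 2-exon transcript of 5346 nt at the end of the gene, with 36.0 ± 4.58% in knockdown libraries and 29.6 ± 6.67% in control libraries. The main complete transcript, of 3925 nt with 38 exons, held 41.5 ± 8.23% in knockdown libraries and 43.5 ± 2.43% in control libraries (SD, n = 3 each).

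In Cacna2d2 the split between transcripts was unstable. Starts held 100%, 16.5% and 57.8% for the most upstream one in knockdown libraries 1, 2 and 3, against 57.2%, 84.1% and 8.67% in control libraries 1, 2 and 3. Its only cassette exon, of 21 nt, fell under the minimum of 1 RPKM per library and was not tested. Cacna2d3 had 1 transcript only, so no share was defined.

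Of the 40 member transcripts, 29 are new splice combinations and 11 match a reference transcript, and 24 could be tested. Of these 24, 0 passed, against 0.309% of 31429 transcripts tested. An unadjusted p below 0.05 was reached by 2 of 24 (8.33%), against 9.01% of all transcripts tested. Simes tests per gene called 0 of the 5 member genes tested, against 0.702% of 9538 genes, with the smallest adjusted p = 0.47 for Cacnb2. Of the 40 transcripts, 24 were at 0 in at least 1 library and 5 were at 0 in all 6.

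The partners of these subunits were also expressed. Of 10 pore subunit genes, 7 were tested and 0 called, against 1.71% of all genes tested. The 7 had 6 positive values and a median log2 fold change of 0.30. Over all genes tested, 8112 of 15983 values were positive and the median was 0.004. Unadjusted p by limma was below 0.05 for 3 of the 7, against 23.9% of all genes tested. Pore subunit genes are long, with a median length of 8042 nt beside 2389 nt over all genes tested. With the transcript length trend removed their median log2 fold change was 0.19. Cacna1d, the L-type pore of endocrine cells, had the highest level, 14.1 RPKM in knockdown and 12.3 RPKM in control libraries on average, before Cacna1h, a T-type pore, at 7.53 and 6.67 RPKM. Cacna1a had 6.93 RPKM in knockdown and 5.59 RPKM in control libraries, and Cacna1c 5.81 and 4.28 RPKM.

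Of the 9 other auxiliary subunit genes, 2 were tested and 0 called, against 1.71% of all genes tested. Cacng7 averaged 0.173 RPKM in knockdown and 0.273 RPKM in control libraries, and Cacng6 0.122 and 0.148 RPKM. Among the 4 RGK GTPases, small proteins that bind β subunits and inhibit the channel, Gem averaged 32.4 RPKM in knockdown and 29.4 RPKM in control libraries. Rem2 averaged 26.3 RPKM in knockdown and 28.7 RPKM in control libraries, and its log2 fold change (-0.17, SE 0.05) had an adjusted p = 0.14. Both were tested and 0 called, and unadjusted p by limma was below 0.05 for Rem2 alone. Of 26 channel-associated genes 23 were tested and 0 called, with 13 positive and 10 negative values. Unadjusted p by limma was below 0.05 for 10 of the 23, against 23.9% of all genes tested. Among the abundant ones, the calcium sensor gene Calm2 averaged 149 RPKM in knockdown and 158 RPKM in control libraries, and Calm3 116 and 114 RPKM. Syt7, a calcium sensor of exocytosis, averaged 131 RPKM in knockdown and 142 RPKM in control libraries.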

How the data were processed

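Poly(A) RNA of 3 knockdown and 3 control libraries was sequenced on a HiSeq instrument after excision of 200 bp products, with RNA integrity numbers of 7.5 or above, per the labels' protocols. Alignment to the build Rnor_5.0 used TopHat, per the submitters' processing notes. For each library, the authors deposited, for each transcript of an assembly, an estimated read count and an RPKM value held as attribute text. How reads were divided among transcripts, and whether strand was used, is not stated in the labels or headers. About 96% of locus sums were whole numbers (95.8% to 96.0%, tolerance 0.01 reads), and nearly all of these were even, with 95.8% to 96.0% of sums even. Because reads were attribute text, limma was used and no count model.

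Reads were summed per gene model, scaled with the TMM method (trims of 30% on M and 5% on A) and kept where 3 libraries reached what 10 reads are at median depth and the total reached 15, leaving 15983 of 24579 models. The voom fit of limma 3.58.1 under R 4.3.3 blocked on batch, with 2 residual degrees of freedom. P-values were Benjamini-Hochberg adjusted with a threshold of 0.05. Transcript shares were tested with diffSplice, and exon inclusion with limma on log2 odds of RPKM sums with 0.1 RPKM added to each side, for exons with at least 1 RPKM in each library. Shares are percentages of summed RPKM. The scripts were tested on simulated data. Batches pair the libraries by design, and deviations from group means correlated at 0.376, 0.723 and 0.555 in batches 1, 2 and 3.

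The members, companion lists and tests were chosen with earlier results of these data known. Named were all 7 genes, Nova1, up to 4 genes with the highest RPKM of each companion list and any called, transcripts with at least 10% of their gene, every measured cassette exon, and the 3 most similar genes of each member at 1 RPKM or more. A gene that this rule takes is not reported here. The test of mutually exclusive exons was added after seeing the data. Exon and protein sequences were not used here.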

Additional observations from a re-analysis of the deposited data

How the results depend on the processing

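No member gene, transcript, cassette exon or exclusive exon pair passed under any alternative run. Without the replicate block 0 of all genes tested passed, against 274 with it, and no member call changed. Over all genes tested the alternatives called 4, 0 and 75 genes without replicates 1, 2 and 3, 250 with median of ratios scaling, 91 with library totals, 171 with no filter, 119 with a filter 5 times stricter, 0 on each log2 RPKM scale, 72 with scaling factors from all gene models (added after seeing the data) and 584 with the transcript length trend removed. Uncalled values crossed 0 for 3 genes, and the cause was not tested. Cacnb1 was -0.0026 with the length trend removed. Cacnb3 was 0.020 with library totals and 0.0034, 0.0036 and 0.0036 on log2(RPKM + 1), + 0.1 and + 0.01. Cacna2d1 was -0.077 to 0.072 when a replicate was left out (positive without replicate 1), 0.046 with library totals, and 0.095, 0.096 and 0.096 on the same RPKM scales. Companion genes called were 0 in all but 2 settings, with 0 to 1 when a replicate was left out (Thbs1 without replicate 3) and 1 with the length trend removed (Ahnak, adjusted p = 0.042 by limma). Members with at least 1 RPKM in both group means numbered 5, against 4 with summed reads per kilobase of the longest transcript, where Cacna2d1 averaged 33.9 in knockdown and 32.8 in control libraries, and 3 with transcripts that match a reference only. Nova1 was not called without the block (adjusted p = 1.00 by limma) or on the RPKM scales, where its log2 fold change was -0.54, -0.73 and -0.76 with 1, 0.1 and 0.01 added (adjusted p = 0.32 to 0.33 by limma). Without the block Cacnb2 and Cacna2d2 each had adjusted p = 1.00 by limma. Depth limits Cacnb4 and Cacna2d3, with 4 to 76 reads a library.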
